A study of Mus musculus with 2 samples.

Results

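Antiviral effectors and the ISG15 pathway are described here by 10 genes, Rsad2, Cmpk2, Mx1, Oasl1, Oasl2, Oas3, Isg15, Usp18, Herc6 and Isg20. They were chosen by name, and each matched 1 row of the 31053 genes counted in both libraries. Their levels were measured in 10107 WT and 7604 CD169-DTR cells, which are the barcodes with at least 1000 UMIs (unique molecular identifiers, each standing for 1 captured RNA molecule) and at most 17% mitochondrial UMIs. The cells came from C57BL/6 mice given 100000 GL261 mouse glioma cells into the brain and were sorted 10 days later as CD45.2+ and propidium iodide-negative. WT mice and CD169-DTR heterozygous mice, in which the Siglec1 gene that encodes CD169 drives a receptor for diphtheria toxin (DT), both received DT on day -1 and day 4. The comparison asks how the transcripts differ in tumors after CD169+ cells were depleted. Mice were pooled into 1 library per group, so the spread between mice is unknown, no test was possible, and genotype and library cannot be told apart. All intervals are 95% and cover counting error only.

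Type I interferons bind a surface receptor whose signal assembles a complex of transcription factors, IRF9 among them, that binds interferon-stimulated response elements (ISRE) at target genes. Type II interferon acts mainly through gamma-activated sites (GAS). The products of the targets block viral replication at several steps, and ISG15 is a ubiquitin-like protein that is attached to other proteins and removed again. In gliomas these genes serve as readouts of interferon signaling in tumor-infiltrating cells.

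In the GENCODE M21 annotation of mm10, Rsad2 (chr12:26442746-26456452) and Cmpk2 (chr12:26469204-26479837) are neighbors on opposite strands, 12.75 kb apart. Oasl2 (chr5:114896936-114912234) and Oasl1 (chr5:114923240-114937915) lie 11.01 kb apart, and Oas3 (chr5:120753098-120777661) is on the same chromosome. The other members are Mx1 (chr16:97447035-97462907), Isg15 (chr4:156199424-156200818), Usp18 (chr6:121245906-121270917), Herc6 (chr6:57581000-57664632) and Isg20 (chr7:78913424-78920396). RefSeq promoter sequences (GRCm38.p6, 250 bases before to 50 after each start) were at hand for 8 of the 10 members, in 10 promoters since Isg20 has 3. The ISRE core, searched on both strands as GAAA repeated after 2 bases of any kind, was found in the promoters of 3 members, Rsad2, Oas3 and Isg15, and in 3.44% of all 32851 promoters. The GAS core, TTC and GAA with 3 bases of any kind between them, was found in 1 member, Isg20, and in 8.30% of all promoters. The 4 promoters with a match are shown for the 150 bases before the start, with the core in capitals because they hold the letters that these interferon factors bind.
Rsad2, chr12:26456453-26456602, minus strand: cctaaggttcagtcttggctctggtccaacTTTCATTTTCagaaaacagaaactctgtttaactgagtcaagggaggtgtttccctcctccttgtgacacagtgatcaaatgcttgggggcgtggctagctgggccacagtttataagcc
Oas3, chr5:120777660-120777809, minus strand: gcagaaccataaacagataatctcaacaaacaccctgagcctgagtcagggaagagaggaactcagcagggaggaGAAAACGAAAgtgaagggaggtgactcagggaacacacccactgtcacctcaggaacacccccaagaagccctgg
Isg15, chr4:156200819-156200968, minus strand: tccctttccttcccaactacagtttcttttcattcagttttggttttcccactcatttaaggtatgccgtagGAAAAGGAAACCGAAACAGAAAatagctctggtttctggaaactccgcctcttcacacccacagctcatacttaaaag
Isg20, chr7:78913274-78913423, plus strand: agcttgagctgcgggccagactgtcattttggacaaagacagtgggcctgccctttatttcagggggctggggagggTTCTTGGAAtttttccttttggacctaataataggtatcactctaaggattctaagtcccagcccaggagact
No promoter of a member held both cores. In Isg15 there were 3 ISRE cores that overlap into 1 run from base -78 to base -57, counted from the start. The core of Rsad2 at -120 to -111 reads TTTCATTTTC here and GAAAATGAAA on the other strand. A match describes letters and does not show binding, and no match was seen in these windows for Cmpk2, Oasl1, Oasl2 and Herc6.

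The WT library held 101808996 UMIs and the CD169-DTR library 84065489, with medians of 7776 and 8099 UMIs per cell. Clusters were found without the members and without other interferon-response genes, and named from markers, so each class below is a marker-based class. Of 29 clusters, 4 stayed unnamed and the others fell into 12 classes, and the sort also held endothelial, choroid plexus and a few neural or glioma cells. Only 21 cell barcodes occurred in both libraries, where 11.3 were expected by chance. Siglec1, the gene that drives the toxin receptor, was at 38.9 CPM (UMIs of a gene per 1000000 UMIs of the class and library) in WT and 12.6 in CD169-DTR macrophages, and at 18.8 and 5.59 in microglia. Fewer cells with Siglec1 RNA and less of it per cell cannot be told apart from these sums. In the free RNA of empty droplets the members summed to 3195 CPM in WT and 1192 in CD169-DTR, and microglial markers in lymphocytes served to estimate how much of it a droplet held. From the 90% of lymphocytes with the fewest microglial UMIs, at most 3 in WT and 2 in CD169-DTR, the estimate was 1.94% and 1.06% of a median immune cell, and from all lymphocytes it was 23.4% and 11.1%. The lower estimate accounted for 3.75% or less of the summed level of the members in every named class of immune cells with 30 cells in both libraries, and for 10.3% in WT choroid plexus cells. Subtraction of the higher estimate turned the direction of Isg20 in microglia and of Oas3 in endothelial cells, as given with these classes. Barcodes just outside the limit of 1000 UMIs, from 500 on, had members at 2398 and 871 CPM, and those just inside, up to 1500, at 2479 and 977.

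In CPM, the members were highest in granulocytes in both libraries, then in macrophages and dendritic cells, and lowest in choroid plexus cells. This is not an order of UMIs per cell. Granulocytes had medians of 2924 and 3629 UMIs in WT and CD169-DTR, against 11440 and 14580 in dendritic cells. In cells drawn down to 4000 UMIs, the median of member UMIs was 19 in WT granulocytes (35 cells) and 17 in WT dendritic cells. In CD169-DTR it was 5.5 in granulocytes (68 cells) and 7 in dendritic cells. Summed over the 10 genes, granulocytes held 14934 CPM in WT and 5343 in CD169-DTR. Macrophages held 6031 and 2090, and dendritic cells 5114 and 2530. By this sum, macrophages stood above dendritic cells in WT and below them in CD169-DTR, with intervals that did not overlap in either library. Isg15 made up 49.88% and 47.56% of the sum in macrophages and 51.69% and 49.25% in dendritic cells. Single members did not all follow. In WT, Usp18 and Isg20 were higher in dendritic cells, and in CD169-DTR, Rsad2 was higher in macrophages. Microglia, the resident macrophages of the brain and the most numerous cells, held 1916 and 1254. T cells held 2761 and 1204, NK cells 1980 and 700, B cells 2889 and 500, endothelial cells 2680 and 1904, and choroid plexus cells 227 and 104. Among these classes the WT value was the higher one throughout.

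**Figure D1:**
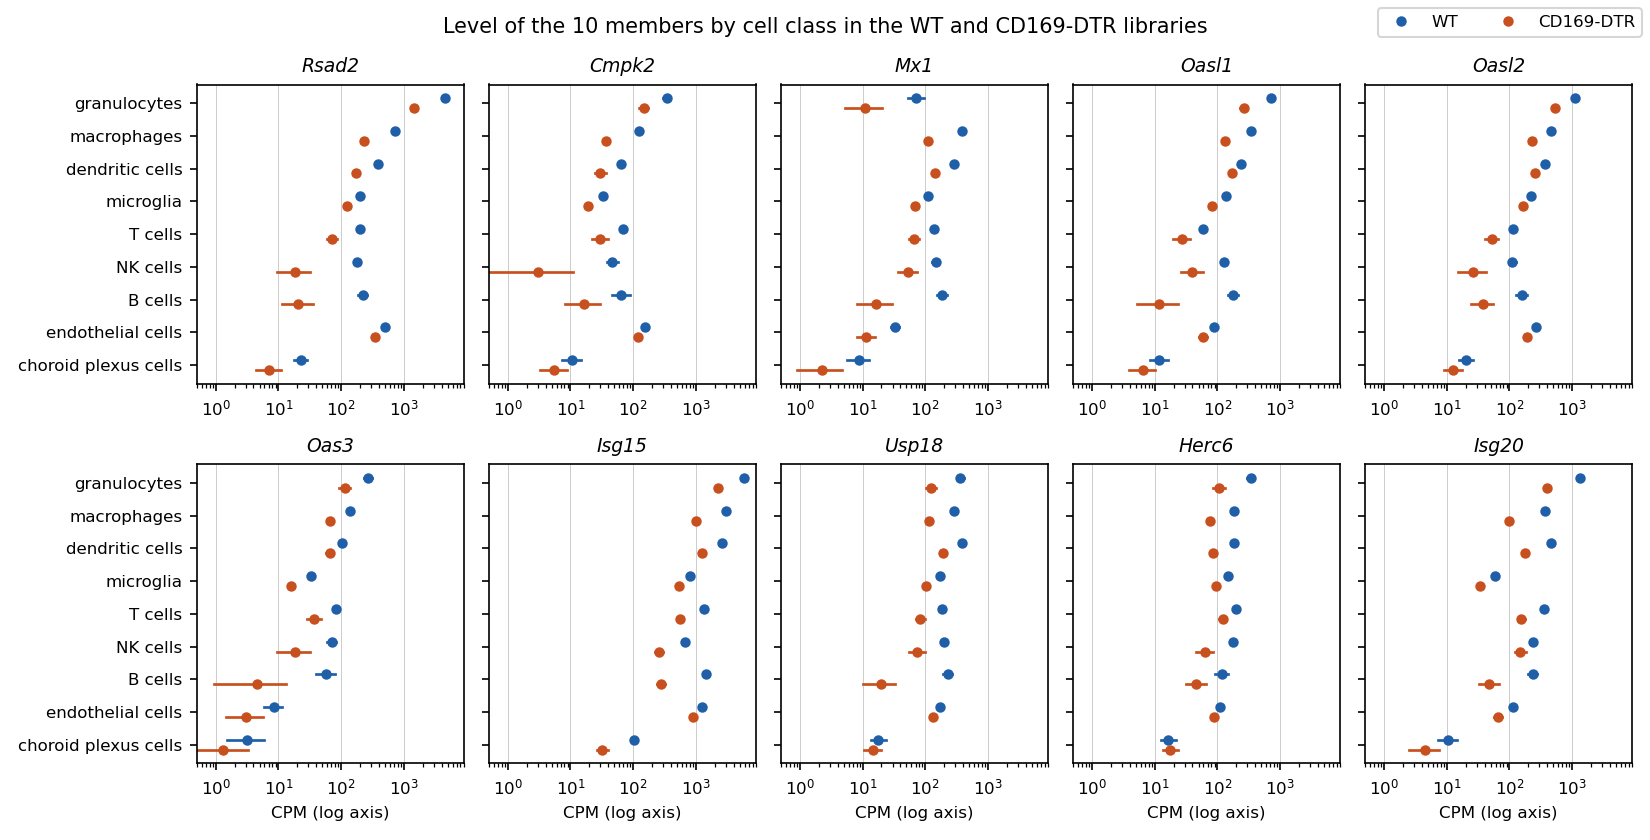
Level of each member in CPM (log axis) in 9 cell classes, for the WT (blue) and CD169-DTR (orange) libraries. Points are sums over the cells of a class, lines are exact Poisson 95% intervals for counting error, and lines that reach the left edge run on. Rsad2 peaks in granulocytes, at 4489 and 1439, where Mx1 is at 71.4 and 11.1.

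Among the enzymes that act on nucleotides, Rsad2 encodes viperin, which makes a chain-terminating nucleotide, and its neighbor Cmpk2 encodes a mitochondrial nucleotide kinase. Rsad2 was at 4489 CPM in WT and 1439 in CD169-DTR granulocytes. It was at 726 and 232 in macrophages, 503 and 352 in endothelial cells, 382 and 172 in dendritic cells and 197 and 126 in microglia. Endothelial cells ranked behind granulocytes and macrophages in WT and behind granulocytes alone in CD169-DTR. Rsad2 made up 30.1% and 26.9% of all member UMIs in granulocytes, against 12.04% and 11.1% in macrophages and 10.3% and 10.0% in microglia, so the greater share in granulocytes was present in both libraries. Cmpk2 was also highest in granulocytes (345 and 147) and endothelial cells (152 and 120), whose intervals overlapped in CD169-DTR, with macrophages (122 and 36.7) next in WT. In microglia Cmpk2 was at 32.5 and 18.7.

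Mx1, a gene of the dynamin-like GTPase family, had another order. Its level was 378 CPM in WT and 109 in CD169-DTR macrophages, 288 and 142 in dendritic cells and 111 and 69.7 in microglia. Granulocytes held 71.4 and 11.1, from 47 and 10 UMIs, and endothelial cells 33.0 and 11.4. Mx1 was thus 0.478% and 0.208% of member UMIs in granulocytes, against 6.28% and 5.24% in macrophages. In WT granulocytes it was the 1 member below its level in WT microglia.

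Oas3 encodes an oligoadenylate synthase, which is activated by double-stranded RNA. The Oasl genes encode related proteins with ubiquitin-like domains, and mouse Oasl1 is known to restrain IRF7. Oas3 was at 267 and 114 CPM in WT and CD169-DTR granulocytes, 141 and 67.7 in macrophages, 102 and 66.4 in dendritic cells and 33.6 and 16.0 in microglia. In endothelial cells it was at 8.42 and 3.09, so that granulocytes and endothelial cells, which both stood high for Rsad2, were far apart for Oas3. Oasl1 was at 706 and 265 in granulocytes, 344 and 132 in macrophages and 135 and 81.5 in microglia. Oasl2 was at 1090 and 523 in granulocytes, 461 and 229 in macrophages, 223 and 164 in microglia and 260 and 191 in endothelial cells.

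Isg15, the modifier itself, was at 5914 and 2222 CPM in WT and CD169-DTR granulocytes, 3008 and 994 in macrophages and 2643 and 1246 in dendritic cells. It was at 1357 and 561 in T cells, 1241 and 883 in endothelial cells and 808 and 546 in microglia. Herc6, a ligase that attaches ISG15 in mice, was at 339 and 107 in granulocytes, 187 and 76.0 in macrophages, 184 and 85.3 in dendritic cells, 198 and 121 in T cells and 146 and 93.9 in microglia. The intervals of WT T cells, macrophages and dendritic cells overlapped, and in CD169-DTR Herc6 was higher in T cells than in macrophages. Usp18, the protease that removes ISG15 and restrains the type I receptor, was at 379 and 189 in dendritic cells, 360 and 123 in granulocytes, 289 and 114 in macrophages and 170 and 104 in microglia. Isg20, an exonuclease that degrades RNA, was at 1354 and 391 in granulocytes, 463 and 179 in dendritic cells, 375 and 99.5 in macrophages and 359 and 156 in T cells, but at 59.4 and 33.9 in microglia.

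In macrophages, all 10 members were higher in WT by at least 2-fold, where 3.91% of the 11702 genes with at least 20 UMIs were. As the log2 ratio of WT to CD169-DTR the median was 1.49 for the members and -0.02 for all these genes. The difference was largest for Isg20, with 6850 and 930 UMIs and a log2 ratio of 1.92 (1.82 to 2.02). It was 1.79 for Mx1 (1.70 to 1.89), 1.73 for Cmpk2 (1.56 to 1.90), 1.65 for Rsad2 (1.58 to 1.71) and 1.60 for Isg15 (1.57 to 1.63). Oasl1 was at 1.39, Usp18 at 1.35 and Herc6 at 1.29, while Oas3 (1.06, 0.93 to 1.19) and Oasl2 (1.01, 0.94 to 1.08) had intervals that reached below 2-fold. The median number of UMIs per macrophage was 7296 in WT and 12897 in CD169-DTR. With equal weight for each cell the median of the members was 1.22, and with every cell thinned to 4000 UMIs it was 1.37.

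In dendritic cells, which present antigen to T cells, 7 of the 10 members were higher in WT by at least 2-fold, where 3.31% of 11032 genes were. Their median log2 ratio was 1.05, against -0.03 for all genes. Isg20 was at 1.37 (1.25 to 1.49), Rsad2 at 1.15, Cmpk2 at 1.12, Herc6 at 1.11, Isg15 at 1.09 (1.04 to 1.13), Mx1 at 1.02 and Usp18 at 1.00. The 3 genes of the oligoadenylate synthase family were the smallest, with 0.62 for Oas3, 0.54 for Oasl2 and 0.53 for Oasl1. In macrophages too, Oasl2 and Oas3 had the smallest differences. Macrophage markers summed to 5088 and 3359 CPM in dendritic cells, with 4 of 11 higher in WT, and microglial markers to 462 and 695, with 0 of 8 higher in WT. None of them was at 0 in either library, and their part in the result was not tested.

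Microglia had the smallest difference of the immune classes other than plasmacytoid dendritic cells, with a median log2 ratio of 0.69 for the members and -0.04 for 13755 genes. All 10 members were higher in WT, with intervals above 0, and 1 member, Oas3, was past 2-fold, where 1.45% of all genes were. Oas3 was at 33.6 and 16.0 CPM, from 1448 and 834 UMIs, a log2 ratio of 1.07 (0.95 to 1.20). Isg20 (0.81), Cmpk2 (0.80), Oasl1 (0.73) and Usp18 (0.71) followed, and Oasl2 was the smallest at 0.44 (0.40 to 0.48). With the free RNA estimate from all lymphocytes subtracted the median was 0.51 and Isg20 was at -0.43. Oas3, near the lower end in macrophages and dendritic cells, was thus at the upper end in microglia. Markers of macrophages summed to 350 CPM in WT and 222 in CD169-DTR microglia, with 9 of 11 markers higher in WT and 0 of 11 at 0 in either library. Their part in the result was not tested.

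**Figure D2:**
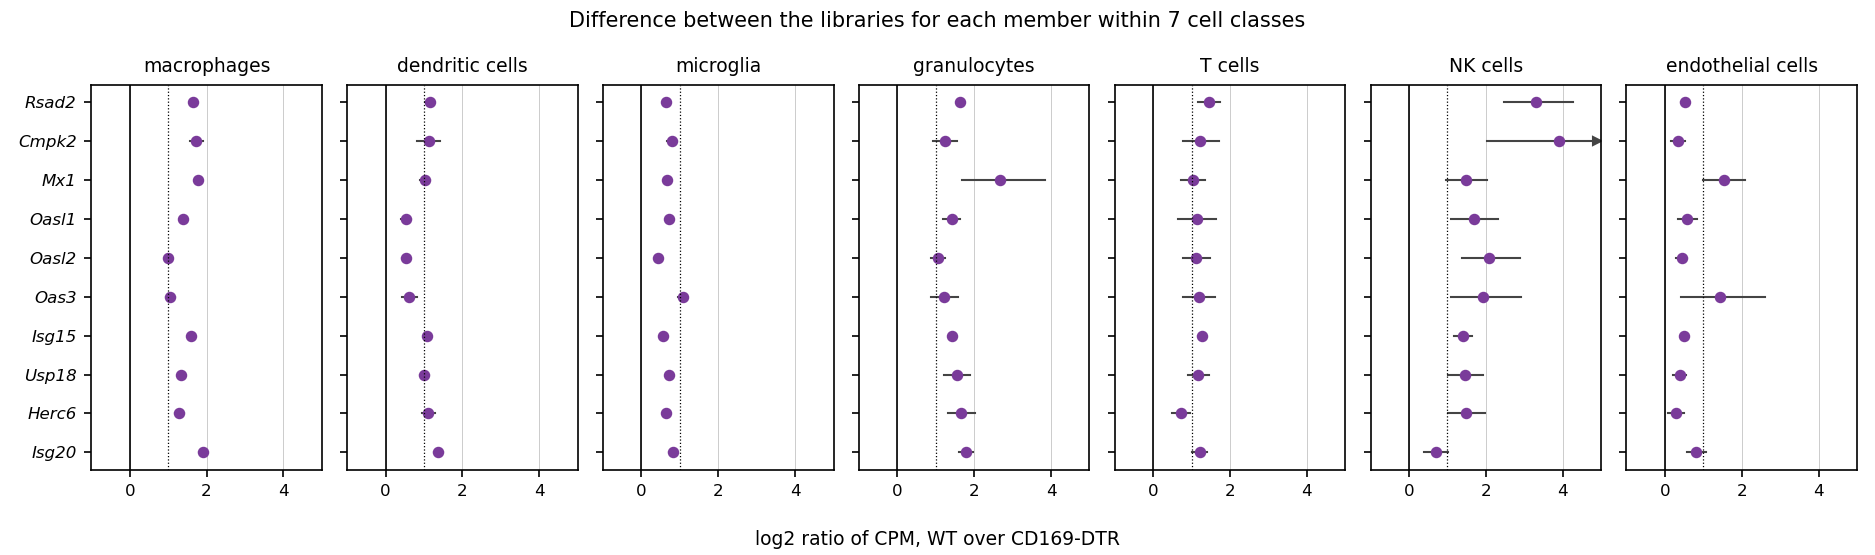
Log2 ratio of CPM, WT over CD169-DTR, for each member in 7 cell classes. Points are ratios of summed UMIs, lines are exact conditional 95% intervals for counting error, an arrow marks an interval that runs past the axis, the solid line is no difference and the dotted line 2-fold. All points lie above 0, and all 10 lie at or above 2-fold in macrophages and granulocytes.

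In granulocytes, all 10 members were higher in WT by at least 2-fold, where 4.65% of 5697 genes were. Their median log2 ratio was 1.48, against -0.13 for all genes. Mx1 had the largest ratio, 2.68, but from 47 and 10 UMIs (1.68 to 3.83). Isg20 was at 1.79 (1.61 to 1.97), Herc6 at 1.67, Rsad2 at 1.64 (1.55 to 1.74) and Isg15 at 1.41 (1.33 to 1.49). These cells were shallow, with medians of 2924 and 3629 UMIs, and thinning to 4000 UMIs, which kept 35 and 68 cells, gave a median of 0.93. Macrophage markers summed to 3762 and 2470 CPM there, 10 of 11 higher in WT, with 0 and 2 at 0, and their part was not tested.

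In T cells, 9 of 10 members were higher in WT by at least 2-fold (7.01% of 9972 genes were), with a median log2 ratio of 1.18 against 0.11 for all genes. Rsad2 was at 198 and 72.1 CPM (log2 ratio 1.46), Isg15 at 1357 and 561 (1.28) and Isg20 at 359 and 156 (1.21), and Herc6 was the exception at 0.71. In NK cells 9 of 10 were past 2-fold (5.34% of 8388 genes were), with a median of 1.59. Here Isg20 was the exception, at 241 and 149 CPM and a log2 ratio of 0.70 (0.38 to 1.02). The ratios of Cmpk2 (3.91) and Rsad2 (3.30) in NK cells rest on 2 and 12 UMIs in CD169-DTR. B cells, with 76 and 124 cells, had all 10 members past 2-fold (6.54% of 6312 genes were) and a median of 2.89. In CD169-DTR B cells Oas3 rests on 3 UMIs, Oasl1 on 8 and Rsad2 on 14. After thinning to 4000 UMIs, 5 of 47 WT B cells held 57.3% of the member UMIs, and 7 of 70 CD169-DTR B cells held 81.2%.

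Some lymphocyte barcodes also carried RNA of other cells. Macrophage markers summed to 2090 and 1172 CPM in T cells, 1494 and 784 in NK cells and 3455 and 896 in B cells, with 11 of 11 higher in WT in each class. None of the 11 was at 0 in WT, and 1, 5 and 2 were at 0 in CD169-DTR. Without the cells that held more than 3 UMIs of microglial markers, the summed members were at 2826 and 1141 CPM in T cells and 2012 and 722 in NK cells. The median log2 ratios were then 1.26 in T cells, 1.59 in NK cells and 2.92 in B cells. The part of macrophage RNA in these values was not tested.

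Endothelial cells had the smallest difference of all classes above 100 cells in both libraries, with a median of 0.50 on the log2 scale against -0.02 for all genes. Mx1 (153 and 37 UMIs, 1.53) and Oas3 (39 and 10 UMIs, 1.45) were past 2-fold, where 2.58% of 11327 genes were. The members with high levels there differed less, with 0.51 for Rsad2, 0.49 for Isg15, 0.44 for Oasl2 and 0.34 for Cmpk2. Oas3 was at -1.08 with the free RNA estimate from all lymphocytes subtracted. Macrophage markers summed to 962 and 718 CPM, 10 of 11 higher in WT and none at 0, and their part was not tested. Without the 8% of cells with the highest doublet scores the median was 0.14. Plasmacytoid dendritic cells, known as strong producers of type I interferon, summed to 2447 and 2210 CPM, with a median log2 ratio of 0.19 over the members (0.10 over all genes) and intervals of all 10 that held 0. Only 14 CD169-DTR cells of this class were present, so a 2-fold difference of a single member could not always be seen at this depth.

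Within the classes, a few clusters were nearly level between libraries. The microglial cluster led by the immune genes Ifnb1, H2-M2, Cxcl13 and Gpr84, with Il12b and Cxcl10 among its first 10 genes and with 334 and 254 cells, summed to 5111 CPM in WT and 4797 in CD169-DTR, the highest of the 9 microglial clusters in both. Its members had a median log2 ratio of 0.11, 9 of 10 were higher in WT and 4 had intervals above 0, with Isg15 at 1872 and 1741, Rsad2 at 782 and 763, Mx1 at 345 and 339 and Oasl2 at 474 and 502. It held 6.96% of WT and 4.67% of CD169-DTR microglia and 13.5% and 13.8% of their member UMIs, and microglia without it had a median of 0.73. Ifnb1 itself, which encodes interferon beta, was lower in WT there, at 157 against 219 CPM (log2 ratio -0.48, -0.69 to -0.27).

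The other microglial clusters had lower levels and a higher WT value in each. The cluster led by P2ry12, a marker of homeostatic microglia, was lowest, at 579 and 400 CPM for the sum and a median log2 ratio of 0.51 over the members. Oas3 was at 1.73 and 0.74 CPM in it, from 12 and 8 UMIs, and Rsad2 at 36.1 and 25.4. The cluster led by Spp1, Cd5l and Igf1 had the largest median, 1.00, with a sum of 2206 and 1186. Rsad2 was at 267 and 179 there, Oasl1 at 162 and 63.6 and Oas3 at 51.6 and 19.3.

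Macrophage clusters differed in size of the ratio as well. The Ms4a7, Pf4 and Gpnmb cluster, with 1462 and 402 cells, summed to 5021 and 1517 CPM and had a median log2 ratio of 1.69. Isg15 was at 2714 and 729 in it, Isg20 at 296 and 62.1 and Mx1 at 312 and 81.2. The F13a1 and Chil3 cluster, which also held the monocyte markers Ccr2 and Plac8, had the highest levels, 8022 and 3206, and a median of 1.32. The Retnla and Gdf15 cluster had 5651 and 3061 and a median of 0.98. All members were higher in WT in each of the 3 clusters.

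Among dendritic cells, the Cd209a cluster summed to 5545 and 2338 CPM with a median of 1.19, and the Xcr1 cluster to 3727 and 2313 with a median of 0.59. The cluster led by Ccr7 and Ccl22, genes of migrating dendritic cells, was at 5564 and 5106 with a median of 0.20, from 145 WT and 15 CD169-DTR cells. Oasl1 was higher in CD169-DTR there, at 401 against 622 CPM. Of the endothelial clusters, the one led by Cldn5 was at 3025 and 2167 and the one led by Plvap at 588 and 595. No test of the difference between clusters was possible.

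**Figure D3:**
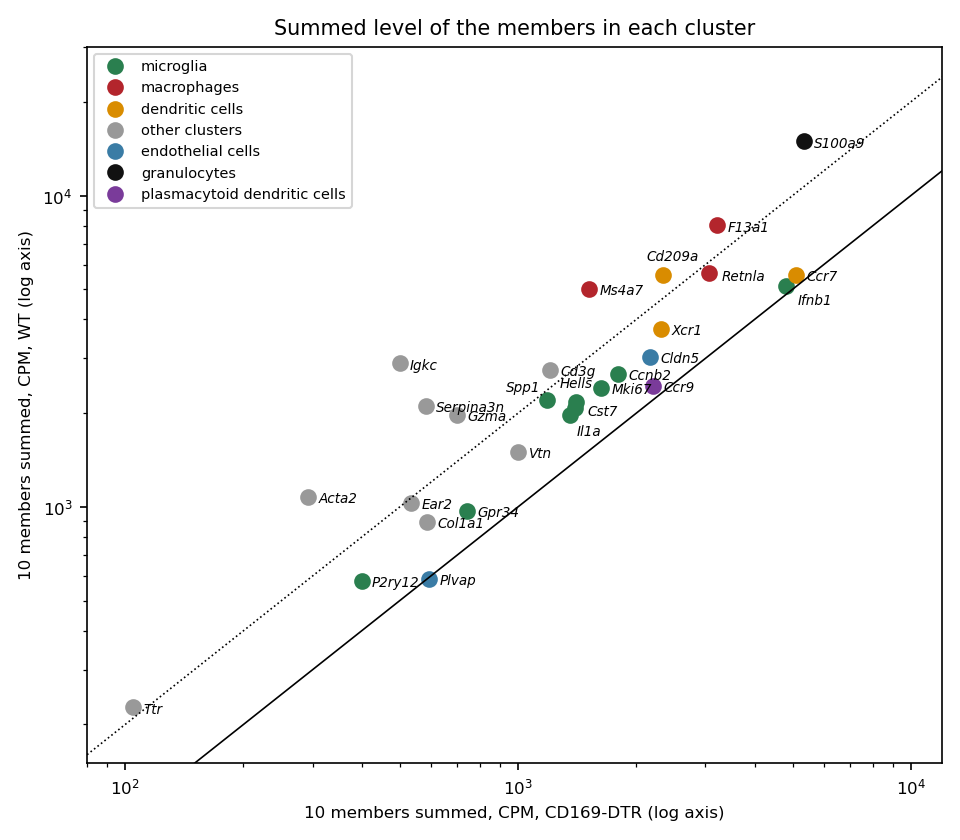
Summed level of the 10 members in each cluster with at least 10 cells in both libraries, in CPM, CD169-DTR on the x axis and WT on the y axis (both log axes). Each point is a cluster named by its leading gene, the solid line is equality and the dotted line is a WT value 2-fold higher. The Ifnb1, Ccr7, Ccr9 and Plvap clusters lie near equality, and the macrophage clusters F13a1 and Ms4a7 lie above the dotted line.

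The class levels came from most cells in some classes and from few in others. Every cell was thinned to 4000 UMIs, which left out 560 of 2233 WT and 51 of 657 CD169-DTR macrophages, and 472 and 412 microglia. In macrophages Isg15 was then found in 89.8% of WT cells (88.3 to 91.3) and 70.0% of CD169-DTR cells (66.1 to 73.6), where the unthinned shares were 93.6% and 86.9%. Rsad2 was found in 55.6% and 28.4%, Mx1 in 56.2% and 27.2% and Isg20 in 57.6% and 27.1% of macrophages. In microglia Isg15 was found in 65.4% and 51.9%, and Rsad2 in 26.3% and 17.7%. In choroid plexus cells, the class with the lowest levels, with medians of 14550 and 12530 UMIs against 7296 and 12897 in macrophages, Isg15 was found in 18.1% and 4.85% and Rsad2 in 4.17% and 1.82%.

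A cell held a median of 6 of the 10 members in WT and 3 in CD169-DTR macrophages. The share with at least 5 members was 61.9% and 27.1% in macrophages, 61.5% and 37.3% in dendritic cells, 24.8% and 12.3% in microglia and 39.5% and 15.1% in T cells. The WT macrophages thus included many cells with nearly all members, while CD169-DTR macrophages were mostly cells with few. All 10 were found in 94 of 1673 WT macrophages and 7 of 606 CD169-DTR macrophages. In granulocytes, thinned to 2000 UMIs for their low depth, 70.1% and 25.4% of cells had at least 5 members, and 3.66% and 21.6% had none.

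**Figure D4:**
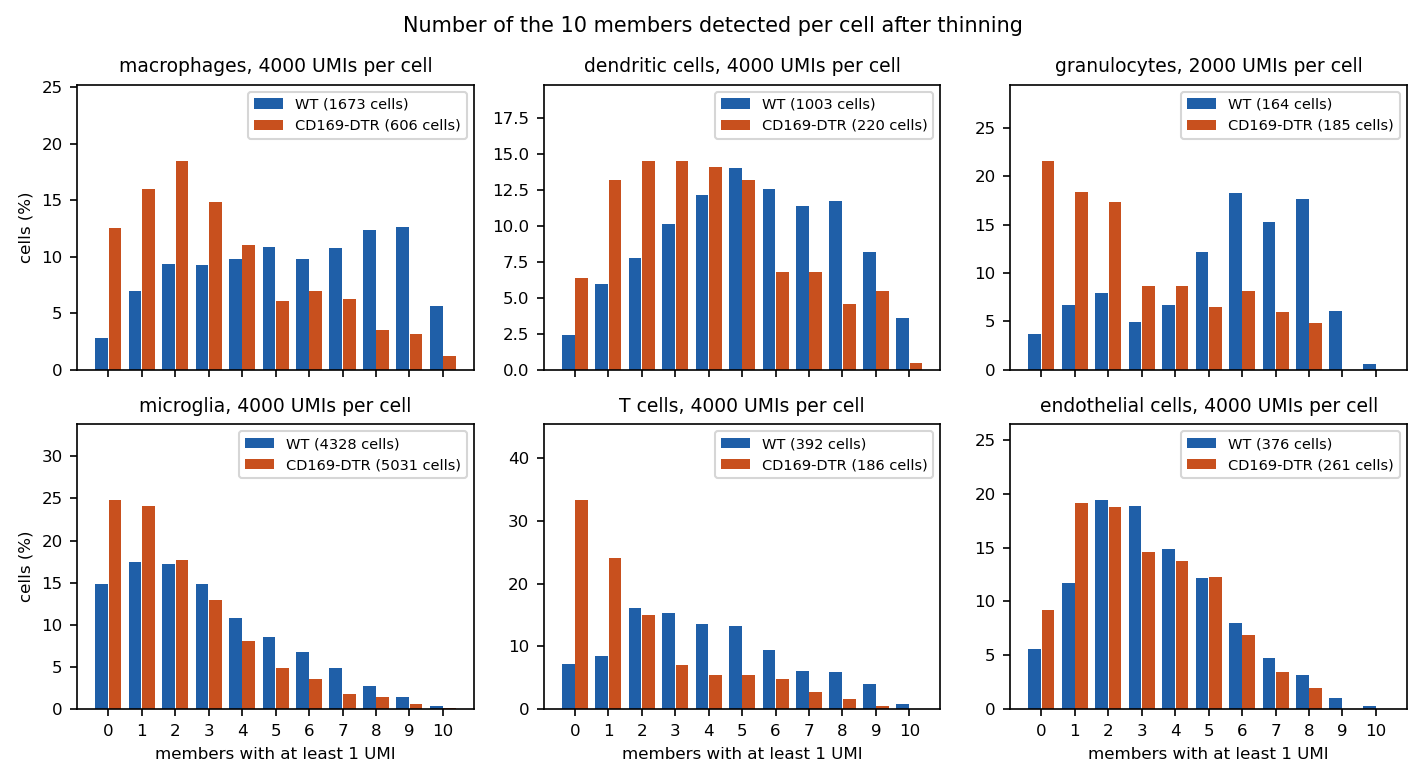
Share of cells (%) by the number of the 10 members with at least 1 UMI, after thinning every cell to 4000 UMIs (2000 in granulocytes), for WT (blue) and CD169-DTR (orange). Bars are percentages of the thinned cells given in each legend. WT macrophages and granulocytes reach from 5 to 9 members in most cells, and CD169-DTR cells of the same classes mostly hold from 0 to 4.

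The tenth of macrophages with the most member UMIs held 30.8% of them in WT and 44.9% in CD169-DTR. In microglia it held 41.3% and 48.1%, in T cells 34.2% and 51.3% and in granulocytes (at 2000 UMIs) 29.5% and 53.7%. The share held by the cells with the most member UMIs was thus larger in CD169-DTR in each of these classes. The mean of member UMIs per thinned cell was lower there, at 26.65 and 10.3 in macrophages and 7.05 and 4.52 in microglia. The mean was 11.8 and 4.13 in T cells and 37.1 and 12.4 in granulocytes. A lower mean can by itself raise this share, and its part in the difference was not tested. Thinned to 2000 UMIs, WT macrophages had a mean of 13.7 and a share of 31.0%, and WT microglia 3.47 and 42.7%. Across the thinned cells of a class, the median of the 45 pairwise correlations between members was 0.44 in 1673 WT and 0.35 in 606 CD169-DTR macrophages, and 0.30 and 0.26 in microglia. Isg15 and Isg20 were the closest pair in macrophages (0.64 and 0.62), T cells and dendritic cells in both libraries, Oasl1 and Isg15 in microglia (0.48 and 0.45) and Rsad2 and Isg15 in granulocytes (0.73 and 0.73). Cells of a library share their droplets and pooled mice, and sparse counts lower all these values.

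Siglec1 RNA marks part of the cells that the toxin receptor would reach. After thinning, microglia with a Siglec1 UMI (257 of 4328 in WT and 92 of 5031 in CD169-DTR) had higher levels of all 10 members than microglia without, with a median log2 ratio of cells with to cells without of 0.87 in WT and 1.16 in CD169-DTR. Isg15 was at 1253 against 684 CPM in WT and at 1111 against 462 in CD169-DTR microglia. The paper did not detect CD169 protein in microglia, and found Siglec1 largely absent from the microglial cluster of another glioma model. In WT, macrophages held more Siglec1 than microglia (38.9 against 18.8 CPM) and more of the summed members (6031 against 1916). Doublets were not removed, and the part of macrophage RNA in the microglial split was not tested. Of the WT macrophages 235 had a Siglec1 UMI and 1438 had none, and the former had higher levels of all 10 members, 7 with intervals above 0, and the median was 0.22. The members summed to 7939 and 6455 CPM, a log2 ratio of 0.30 (0.26 to 0.33). Isg15 was at 4381 against 3297 there, and Rsad2 at 744 against 730. With the split made on all UMIs before thinning, 421 WT macrophages had Siglec1 and the median fell to 0.093. Then 9 of 10 members were higher in them, 4 with intervals above 0, and the log2 ratio of the sum was 0.17 (0.14 to 0.20). Of 606 CD169-DTR macrophages 22 had a Siglec1 UMI, 5 of 10 members were higher in them, and Rsad2 was at 136 against 267, from 12 UMIs in the cells with Siglec1. Split on all UMIs before thinning, 93 CD169-DTR macrophages had Siglec1, 8 of 10 members were higher in them, and the log2 ratio of Rsad2 turned to 0.061 (-0.26 to 0.37). A missing UMI does not show that a cell lacks CD169.

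Of 5 listed genes of ISG15 conjugation that are no members, 4 were counted. They had smaller medians than the members in macrophages and microglia. Herc6, which also attaches ISG15, was counted with the members. Ube2l6, the conjugating enzyme of ISG15, had a log2 ratio of 0.97 in macrophages (161 and 82.4 CPM) and 0.32 in microglia. Uba7, the activating enzyme of ISG15, was at 0.74 and 0.12. Trim25, a ligase, was at 0.68 and 0.30, and Ube2e1 at 0.05 and 0.01. The medians of these 4 genes were 0.71 in macrophages, 0.49 in dendritic cells and 0.21 in microglia, and none passed 2-fold in these classes.

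Other genes of the oligoadenylate synthase family differed in their ratios. Oas2 was at 94.1 and 43.3 CPM in macrophages, a log2 ratio of 1.12 (0.96 to 1.28). Oas1a, at 69.6 and 64.5, had a ratio of 0.11 (-0.03 to 0.25), and Oas1g, at 19.8 and 21.2, had a ratio of -0.10 (-0.35 to 0.16). In microglia Oas1a was lower in WT, at 32.2 and 35.8 (-0.16, -0.26 to -0.06), and Oas2 higher, at 53.5 and 37.8 (0.50).

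Of the factors that drive the members, Irf7, a regulator of interferon responses, was at 1585 and 669 CPM in macrophages (1.24), 1622 and 764 in dendritic cells (1.09) and 351 and 227 in microglia (0.63). Stat2 had log2 ratios of 1.05, 0.64 and 0.59 in the same classes. Irf1 was at 0.89 in macrophages and 0.80 in dendritic cells, and Irf9 at 0.40 and 0.39, with intervals above 0. In microglia Irf9 was level, at 66.8 and 66.7.

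Interferon genes were lower in WT in some classes and higher in others. Ifnb1 was at 26.9 CPM in WT and 33.4 in CD169-DTR microglia, a log2 ratio of -0.31 (-0.42 to -0.20), and at 3.67 and 8.02 in macrophages, from 67 and 75 UMIs (-1.13, -1.63 to -0.63). Ifng, which encodes interferon gamma, was at 162 and 346 in T cells (-1.09, -1.26 to -0.93) and at 346 and 460 in NK cells. In each of these classes the ligand just named was lower in WT and the members were higher, and a link was not tested. The paper, with its own clusters of T cells, reports lower Ifng in CD169-depleted mice. By flow cytometry it also reports fewer tumor T cells that produce interferon gamma in CD169-DTR mice. For NK cells it reports no change in the production of interferon gamma. What sets these results apart from the levels given here was not tested. Ifnb1 was higher in WT in the microglial cluster led by Gpr34, at 7.63 and 3.62 CPM (1.08, 0.33 to 1.86). Ifng had few UMIs elsewhere and was higher in WT in microglia, with 47 and 10 UMIs (2.51, 1.51 to 3.66), in dendritic cells, with 21 and 1, and in endothelial cells, with 11 and 0. Receptor genes went both ways in macrophages, where Ifnar1 (0.32) and Ifngr2 (0.24) were higher and Ifngr1 (-0.33) lower in WT with intervals apart from 0, and Ifnar2 was at -0.07 (-0.16 to 0.02).

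Over all cells of a library the members had a median log2 ratio of 1.25, from 0.75 for Oasl2 to 1.89 for Isg20. With the WT class levels set at the class makeup of the CD169-DTR library it was 0.99, so a part of the difference between libraries moved with the makeup. Macrophages held 35.8% of the member UMIs in WT and 17.8% in CD169-DTR, while microglia held 26.8% and 59.6%. Across 23 sums of a class and a library, each of at least 30 cells, the 5 genes with the pattern most like the mean of the members were Dtx3l (Pearson r 0.94), Irf7 (0.93), Ogfr (0.93), Irgm1 (0.92) and Slfn5 (0.92), of 12655 genes compared, all on the interferon-response lists kept out of the clustering. Isg15 followed the mean of the other members most closely (0.97) and Mx1 least (0.67). The points share libraries and mice, and these correlations carry no test.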

How the data were processed

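Per the labels and matrix headers, the authors aligned reads to mm10 and counted UMIs for every gene in each barcode with Cell Ranger (3.1.0 in the header), and the deposited matrices hold raw counts of all barcodes. The data analysed here are 2 libraries, 1 per group. Counts were log-normalised and integrated in Seurat 5.3.0 (R 4.3.3) on 50 dimensions of 2000 variable features without 197 interferon-response genes, and clustered on 30 dimensions at resolution 1. A class name needed 3 detected markers, and these thresholds were set after seeing the data. Doublets were not removed. UMIs were summed per class and library, scaled to CPM and compared as log2 ratios where a gene had at least 20 UMIs, in python 3.11.15 (numpy 2.4.6, scipy 1.17.1, pandas 2.3.3). Intervals are exact Poisson (levels), exact conditional (ratios) and Clopper-Pearson (shares). Cells were thinned to 4000 UMIs, the 20th percentile. The named genes are the members, genes of the pathway lists, Siglec1 and the 5 genes of most alike pattern. The members and lists were chosen with earlier results of these data known. On simulated Poisson counts, which hold no spread between cells or mice, 95.5% of 11702 intervals held the true ratio in macrophages. The alternatives concern the cell minimum, mitochondrial share, doublet scores (Scrublet in scanpy 1.11.5), clustering, scaling, free RNA, weights and thinning, and 2 were added after seeing the data. Some items of the lists are not reported here.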

Additional observations from a re-analysis of the deposited data

Results flagged for a closer look

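Oasl1 in the dendritic cell cluster led by Ccr7 and Rsad2 in the endothelial cluster led by Plvap went against the other clusters of their class, and these differences were not tested. Oasl1 had a log2 ratio of WT over CD169-DTR of -0.63 in the Ccr7 cluster, from 632 WT and 156 CD169-DTR UMIs in 145 and 15 cells, of 0.87 in the Cd209a cluster and of 0.24 in the Xcr1 cluster. Rsad2 had a log2 ratio of -0.77 in the Plvap cluster, at 133 and 226 CPM in 51 and 42 cells, and of 0.58 in the Cldn5 cluster.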

How the results depend on the processing

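The median log2 ratio of the members stayed above 0 in macrophages, microglia and dendritic cells under all 13 alternatives, from 1.22 to 1.63 in macrophages, 0.51 to 0.74 in microglia and 0.91 to 1.15 in dendritic cells. This median has no interval of its own, and it was set against the median lower and median upper limits of the members' intervals. In macrophages it lay outside these with equal weight per cell (1.22), thinning to the common depth (1.37) and free RNA from all lymphocytes subtracted (1.63). In microglia it did so with the same weight for every cluster (0.55) and with free RNA estimated from all lymphocytes (0.51). In dendritic cells it did so with clusters found with interferon-response genes (1.15). The cause was not tested. Of 1037 ratios of a member in 8 classes under the alternatives, 1034 were higher in WT. The 3 others were Isg20 in microglia (-0.43) and Oas3 in endothelial cells (-1.08) with free RNA from all lymphocytes, and Herc6 in endothelial cells (-0.016) without the highest doublet scores. Rsad2 in CD169-DTR macrophages with over without a Siglec1 UMI had a log2 ratio of -0.97, and of 0.061 when the cells were split on all their UMIs. With 1 library per group no replicate could be left out. No paired analysis was possible because each group has 1 library. Depth limits Mx1 in granulocytes, Oas3 in endothelial cells and all members in plasmacytoid dendritic cells, NK cells and B cells of the CD169-DTR library.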
